A study of Mus musculus with 20 samples.

Results

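Cd177 and Ly6i, a gene of the neutrophil surface and a gene of the Ly6 cluster, were described in liver RNA of individual mice. They are 2 of the 4217 mouse genes to which counts could be attributed, and both were among the 2200 genes that passed the filter on low counts. They were chosen by earlier results of these same libraries, namely their fold changes in anti-CD40 mice. Their values in anti-CD40 against control mice, and those of Cd177 between the anti-CD40 groups, are therefore given as descriptions with no test. The 20 libraries fell into 4 groups of 5 mice: anti-CD40 with antibiotics (ABX), anti-CD40 without ABX, control with ABX and control without ABX. CD40, the target named by the anti-CD40 label, is a costimulatory receptor of B cells, dendritic cells and macrophages. The sources used here do not give the strain, sex or age of the mice, the antibody's clone, dose or timing, what controls received or which antibiotics were used. Liver was the labelled tissue of every library.

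CD177 is a glycoprotein tethered to the neutrophil surface by a GPI anchor. In humans it binds PECAM-1 on endothelium and holds proteinase 3 at the cell surface. It belongs to the Ly6/uPAR family of small cysteine-rich domains, and in mice its transcript is used as a marker of mature and activated neutrophils. Ly6i encodes a GPI-anchored Ly6 protein from the gene cluster that also holds Ly6a, Ly6c1, Ly6c2 and Ly6g, and it is used as a marker of activated monocytes and macrophages. Neutrophils and inflammatory monocytes leave the blood and enter the liver in inflammation, where they are few at rest.

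The authors counted mouse alignments at the coordinates of a human annotation, so each gene was measured only where such an interval lies over its exons. This decided what the values mean, and the sequences that carried the measurement of Cd177 are shown for that reason. Cd177 lies on the minus strand of chromosome 7 (mm10, 24743983 to 24760311) and has 17 exons. The measured exonic part was 560 bp in 2 pieces, 443 bp of the last exon and 117 bp of exon 5. Of these, 350 bp are coding and 210 bp are 3′ UTR. The coding part of the last exon is chr7:24744221-24744453 and the piece of exon 5 is chr7:24757996-24758112, both given 5′ to 3′ on the transcript strand in lower case (GENCODE M21 transcript sequence).
Cd177 exon 17, coding part: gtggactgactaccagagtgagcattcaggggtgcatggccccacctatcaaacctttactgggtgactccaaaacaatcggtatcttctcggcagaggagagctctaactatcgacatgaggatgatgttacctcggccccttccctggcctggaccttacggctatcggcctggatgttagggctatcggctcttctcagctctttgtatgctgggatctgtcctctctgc
Cd177 exon 5: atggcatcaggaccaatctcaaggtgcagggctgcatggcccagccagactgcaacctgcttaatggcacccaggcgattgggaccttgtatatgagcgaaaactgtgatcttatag

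The same counted feature of Cd177 held 13 intervals. Besides these 2, 2 lie in introns of Cd177, 4 lie in no gene, 1 lies in BC049730 and 4 in Gm4763, the last 5 over no exon. Fragments from all 13 form 1 count and cannot be told apart. The last-exon piece has near copies in the neighbouring genes Gm4763 (263 of its 443 bases identical, in an alignment of 275) and BC049730 (235 identical, in an alignment of 247). The exon 5 piece matched no other gene, but it resembles 2 other stretches of the Cd177 transcript, with 75 and 69 identical bases. Ly6i lies on the minus strand of chromosome 15 (74979534 to 74983430) and has 3 exons. It was measured over 103 bp, chr15:74983274-74983376, wholly in the 5′ UTR of exon 1. The nearest other transcript to that stretch was I830127L07Rik, with 79 of the 103 bases identical, ahead of Ly6a with 70, BC025446 with 61, Ly6c1 with 58 and Ly6f with 57. The share of fragments from these copies was not tested. The map of counted intervals shows how small a part of each gene was read.

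**Figure D1:**
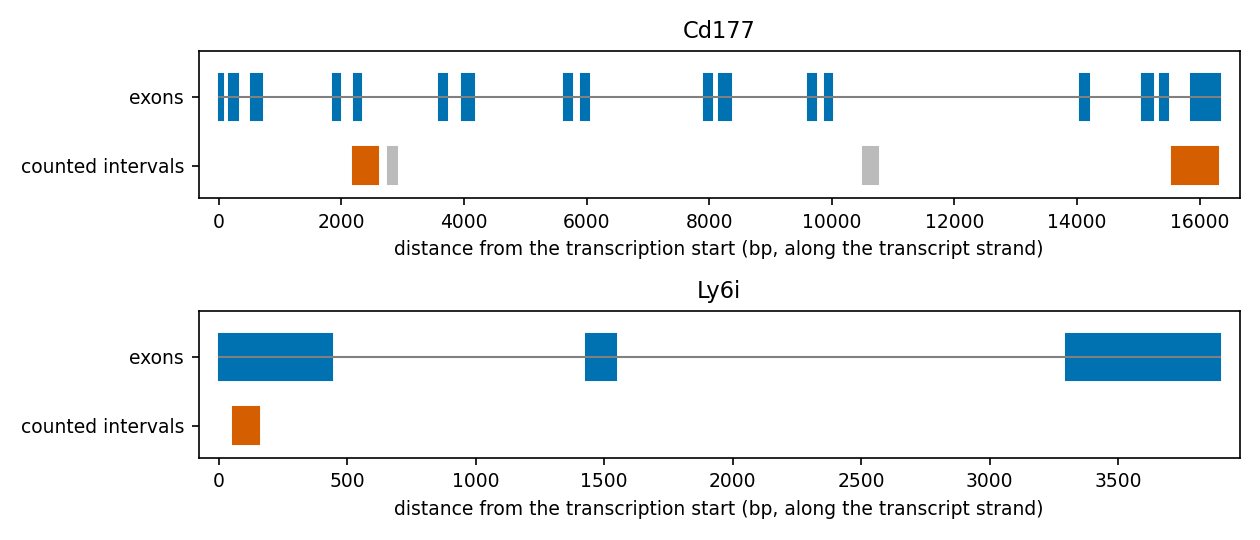
Exons (blue boxes) of Cd177 and Ly6i and the intervals in which fragments were counted, against distance from the transcription start in bp. Orange intervals touch exons of the gene and grey ones do not; the 9 further intervals of the Cd177 feature lie beyond the gene's end and are not drawn. Cd177 was read at exon 5 and at its last exon, and Ly6i in 1 interval of exon 1.

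Libraries held 5053014 to 7618736 counted fragments, with lower totals in anti-CD40 mice with ABX (5053014 to 5874749) and anti-CD40 mice without ABX (5391794 to 6211642) than in control mice with ABX (6201453 to 7282519). Control mice without ABX had 6196703 to 7618736. Levels are counts scaled to library totals and TMM factors and given per 1000000 (CPM). Fold changes are log2 values from edgeR. Their standard error (SE) was approximated as the absolute log2 fold change divided by the square root of the F statistic. It is not a fitted error and can be too wide where counts are near 0. Genes below 0.05 in edgeR's quasi-likelihood test, after Benjamini-Hochberg adjustment over the 2200 genes, are said to be called. A gene near 0 in control mice passed the filter on low counts only through anti-CD40 mice, and the reverse. A call of such a gene between them was partly set by the filter and is no support for a gene list. Labels also give a plate column: control mice 1 to 8 were in column 3, control mice 9 and 10, anti-CD40 mice 11 to 15 with ABX and anti-CD40 mouse 16 without ABX in column 4, and anti-CD40 mice 17 to 20 without ABX in column 5. Plate column and group largely coincide.

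Cd177 was near 0 in control livers, was above every control in anti-CD40 livers with ABX and was highest in anti-CD40 livers without ABX. Anti-CD40 mice with ABX, mice 11 to 15, had 2.52, 3.23, 2.98, 2.77 and 1.85 CPM of Cd177. Anti-CD40 mice without ABX, mice 16 to 20, had 9.24, 9.73, 32.8, 10.1 and 4.41 CPM. Control mice with ABX, mice 1 to 5, had 0, 0.181, 0, 0.354 and 0.185 CPM, and control mice without ABX, mice 6 to 10, had 0.14, 0.323, 0.167, 0.594 and 0 CPM. No anti-CD40 mouse of either kind overlapped a control mouse, and no anti-CD40 mouse with ABX reached the lowest anti-CD40 mouse without ABX. The 2 control groups overlapped throughout. Mouse 18 stood far above the other 4 of its group.

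In counts, the 5 anti-CD40 mice with ABX held 82 fragments of Cd177 and the 5 without ABX held 424, while control mice with ABX held 4 and control mice without ABX held 8. Mean levels were 2.67 ± 0.527 CPM in anti-CD40 mice with ABX and 13.3 ± 11.2 CPM in anti-CD40 mice without ABX, against 0.144 ± 0.149 CPM in control mice with ABX and 0.245 ± 0.226 CPM in control mice without ABX (SD, n = 5 each). The ratio of pooled, scaled counts of anti-CD40 to control mice was 18.8 with ABX (95% exact interval 7.07 to 70.6) and 51.8 without ABX (26.1 to 121). These intervals cover counting error only. The fitted log2 fold changes were 4.05 (SE 0.79) with ABX and 5.62 (SE 0.59) without ABX. As background, 51.5% of the 2200 genes were called with ABX and 60.6% without. Genes whose anti-CD40 group lay wholly above its controls made up 19.3% of them with ABX and 21.4% without. In bulk tissue, fewer cells of a type and less RNA per cell cannot be told apart.

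Between the anti-CD40 groups, Cd177 in ABX mice was 0.206 of its level in mice without ABX by pooled counts (95% exact interval 0.16 to 0.261), a log2 fold change of -2.30 (SE 0.42). It was among the larger falls of that comparison when the gene was chosen, so no test is given. In that comparison 15.9% of genes were called, 7.23% of all genes as lower with ABX, and 4.09% had an ABX group wholly below the group without ABX. Without mouse 18 the log2 fold change was -1.63, and the log2 fold change of anti-CD40 against control without ABX was 4.95. Within plate column 4, the 5 anti-CD40 mice with ABX had 1.85 to 3.23 CPM, the 1 anti-CD40 mouse without ABX had 9.24 CPM, and the 2 control mice had 0.594 and 0 CPM. With plate column as a term the log2 fold change between the anti-CD40 groups was -1.78. The difference between the anti-CD40 effects with and without ABX was -1.56 on the log2 scale (SE 1.57), given with no test, and it rests on the 4 and 8 counts of the controls. As background, 7.55% of genes were called in that comparison. It was -0.90 without mouse 18. In control mice, the pooled ratio of ABX to no ABX was 0.567 (95% exact interval 0.125 to 2.12), from those 4 and 8 counts, where 6.68% of genes were called.

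**Figure D2:**
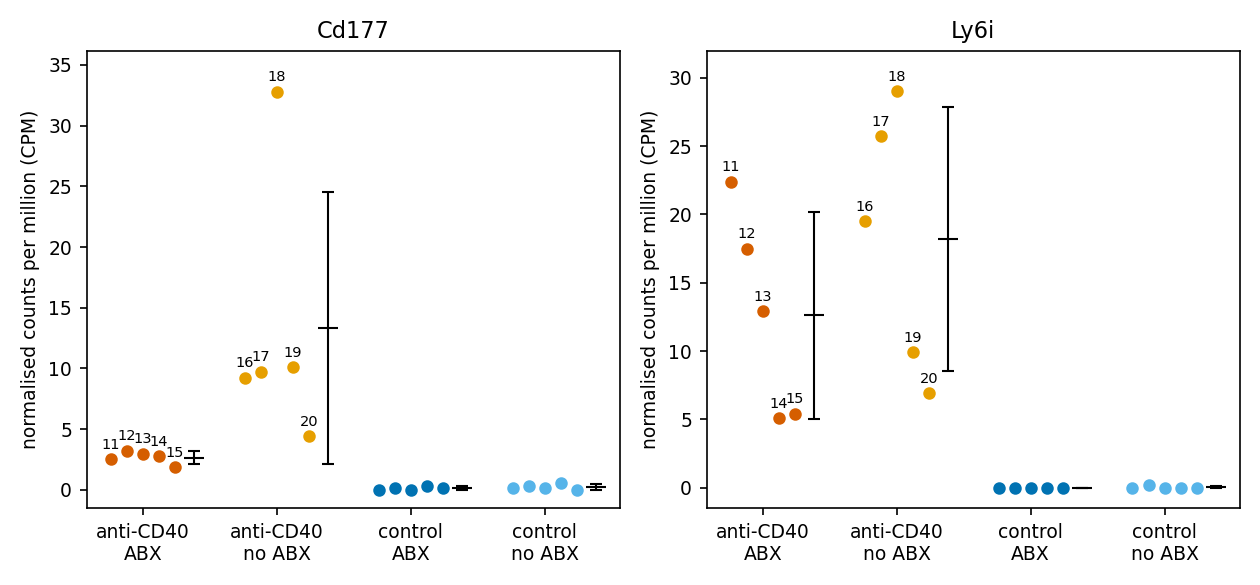
Normalised CPM of Cd177 (left) and Ly6i (right) in each of the 20 mice, by group, with mouse numbers over the anti-CD40 points. Black bars give the group mean ± SD (n = 5). Cd177 separated the anti-CD40 groups, at 1.85 to 3.23 CPM with ABX and 4.41 to 32.8 CPM without, while Ly6i of the same groups overlapped; all control mice lay below 1 CPM.

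Ly6i was present in every anti-CD40 liver and nearly undetected in control livers. Anti-CD40 mice with ABX, mice 11 to 15, had 22.4, 17.5, 12.9, 5.08 and 5.40 CPM of Ly6i. Those without ABX, mice 16 to 20, had 19.5, 25.7, 29, 9.90 and 6.93 CPM. All 5 control mice with ABX had 0 CPM, and 1 fragment, in mouse 7 (0.162 CPM), was counted over the 5 control mice without ABX. Every anti-CD40 mouse lay above its controls, with ABX (as in 19.3% of the 2200 genes) and without (21.4%). The anti-CD40 groups overlapped over most of their range.

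The anti-CD40 mice held 377 fragments of Ly6i with ABX and 603 without. Their means were 12.6 ± 7.54 CPM with ABX and 18.2 ± 9.64 CPM without (SD, n = 5 each). Against the 0 counts of control mice with ABX, set at a floor of 3 counts over the group, the pooled Ly6i level of anti-CD40 mice with ABX was at least 115-fold higher. That floor covers counting error in the controls only and leaves out the spread between mice. Without ABX the pooled ratio of anti-CD40 to control mice was 590, with a 95% exact counting interval of 105 to 23300 because the controls held 1 count. The fitted log2 fold changes, 9.28 with ABX and 8.47 without, depend on the prior count and are no bounds.

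Ly6i was not called between the anti-CD40 groups. The log2 fold change of ABX against no ABX was -0.54 (SE 0.44, adjusted p = 0.445 by edgeR, 15.9% of genes called). An exact two-sided permutation test of mean log2 CPM gave a difference of -0.55 (p = 0.357, n = 5 each), where the smallest p possible is 0.00794. The pooled ratio was 0.665 (95% exact interval 0.583 to 0.758), an interval that leaves out the spread between mice. Ly6i was thus not shown to differ by ABX, and the data do not show that it was equal. Within plate column 4 the anti-CD40 mice with ABX had 5.08 to 22.4 CPM, the anti-CD40 mouse without ABX had 19.5 CPM and the 2 control mice had 0. Ly6i is not compared between the control groups, which held 0 and 1 counts.

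Some anti-CD40 mice held a like place in their group for Cd177 and Ly6i and others did not. Mouse 18 was highest for both. Mouse 20 was lowest of its group for both, at 4.41 CPM of Cd177 and 6.93 CPM of Ly6i, and mouse 15 was lowest for Cd177 (1.85 CPM) and second lowest for Ly6i (5.40 CPM). Mice 14 and 15 had less Ly6i than the other 3 anti-CD40 mice with ABX, but mouse 14 had 2.77 CPM of Cd177, in the middle of its group. Mouse 19 had 9.90 CPM of Ly6i, second lowest of its group, and 10.1 CPM of Cd177, second highest. No correlation over the 10 anti-CD40 mice is given, because Cd177 separates the ABX groups and each holds only 5 mice.

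**Figure D3:**
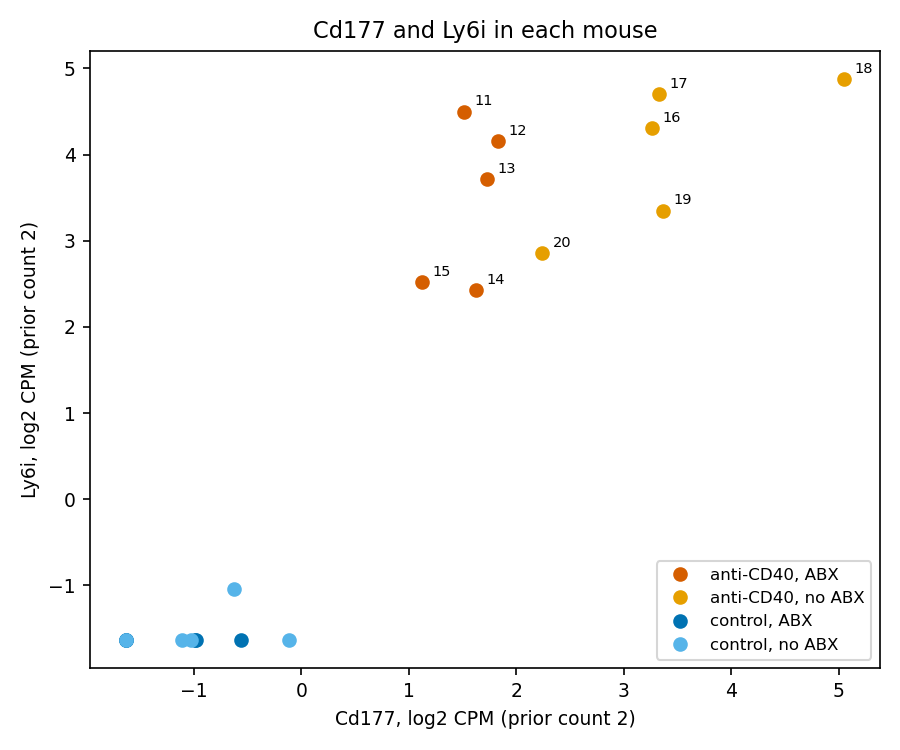
Log2 CPM of Ly6i (vertical) against Cd177 (horizontal) in each mouse, with a prior count of 2, coloured by group and with mouse numbers over the anti-CD40 points. The anti-CD40 groups separate along Cd177 and overlap along Ly6i; control mice sit at the lower left, several of them on the same point.

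The 4 anti-CD40 mice with the least Ly6i in their groups also had the least Pecam1, an endothelial and leukocyte adhesion molecule. Pecam1 was 52.8, 53.5, 35.2, 7.70 and 7.41 CPM in anti-CD40 mice 11 to 15 with ABX, and 76.9, 61.8, 69.1, 15.3 and 15.4 CPM in anti-CD40 mice 16 to 20 without ABX. Lyz2, the lysozyme of myeloid cells, was 882, 794, 495, 278 and 286 CPM in mice 11 to 15 and 752, 757, 958, 354 and 240 CPM in mice 16 to 20. Mice 14, 15, 19 and 20 were thus low for Ly6i, Pecam1 and Lyz2 at once. The part of this in the result was not tested. Without these 4 mice, a choice made after seeing the data, the log2 fold change of anti-CD40 against control was 4.16 with ABX and 5.97 without for Cd177. For Ly6i it was 9.74 with ABX and 8.89 without. Between the anti-CD40 groups it was then -2.54 for Cd177 and -0.49 for Ly6i (adjusted p = 0.235 by edgeR). Among the other genes described here, leaving out these 4 mice ended the call of Nr4a1 between the anti-CD40 groups (adjusted p = 0.139) and of Lynx1 without ABX (adjusted p = 0.0962). It gained those of Padi4 (adjusted p = 0.0221), F13a1 (0.0112) and Nr4a1 (0.0495) with ABX, of Cx3cl1 without ABX (0.0267), and of F13a1 between the anti-CD40 groups (0.0457), all by edgeR.

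Of 42 other neutrophil genes, 1 had attributed counts, so the label of a neutrophil gene set could hardly be checked: S100a8, S100a9, Ly6g and Mpo were not measured here. The 1 gene was Padi4, the peptidylarginine deiminase of neutrophils that citrullinates histones. A further feature lies over Padi4, Rcc2 and Gm13025, which cannot be told apart, and was left out. That feature averaged 10.3 CPM in anti-CD40 mice with ABX and 10.1 CPM in those without. Control mice had 6.47 CPM with ABX and 9.01 CPM without. Padi4 averaged 1.11 ± 0.628 CPM in anti-CD40 mice with ABX and 2.81 ± 1.59 CPM in anti-CD40 mice without ABX, against 0.314 ± 0.288 CPM in control mice with ABX and 0.323 ± 0.381 CPM in control mice without ABX (SD, n = 5 each). Padi4 passed the filter only through the anti-CD40 mice, so its calls against controls were partly set by the filter. Padi4 overlapped between anti-CD40 and control mice with ABX and without, where mouse 20 had 0.946 CPM and control mouse 7 had 0.969 CPM. It was called higher with anti-CD40 without ABX (log2 fold change 3.09, SE 0.62, adjusted p = 1.50e-04 by edgeR, with 31.8% of genes called higher). With ABX its value was 1.71 (SE 0.73, adjusted p = 0.0528), a call that was gained without control mouse 3 (adjusted p = 0.0497) or anti-CD40 mouse 14 (adjusted p = 0.0352) and by DESeq2 (adjusted p = 0.0457), and with library totals (2.04, adjusted p = 0.0199). Between the anti-CD40 groups it was -1.36 for ABX against no ABX (SE 0.51, adjusted p = 0.0714), and adjusted p = 0.0375 without mouse 20. An exact two-sided permutation test of mean log2 CPM in the same groups gave -1.08 (p = 0.0476, n = 5 each, smallest p possible 0.00794). The anti-CD40 groups overlapped.

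Of the 34 genes reported here from the inflammatory monocyte list, 5 were measured, and all 5 passed the filter. The 5 do not all mark inflammatory monocytes: Lyz2 is a gene of myeloid cells, and Nr4a1 is required by patrolling monocytes. With ABX, 3 were called higher in anti-CD40 mice and 2 were not called (26.6% of all genes were called higher and 24.9% lower). Without ABX, all 5 were called higher (31.8% of all genes higher and 28.8% lower). Ms4a7, F13a1 and Ms4a4c were low in control mice and passed the filter through the anti-CD40 mice. Their calls as higher were partly set by the filter and are no support for the list. The median log2 fold change of all 5 was 2.08 with ABX and 2.32 without, against 0.02 and 0.03 over all genes tested. Ms4a4c, a tetraspan gene of mouse monocytes, rose to 19.6 ± 7.69 CPM in anti-CD40 mice with ABX and 32.3 ± 15.2 CPM in those without, against 0.89 ± 0.502 CPM in control mice with ABX and 1.88 ± 1.04 CPM in control mice without. Lyz2 rose by a log2 fold change of 2.28 (SE 0.40) with ABX and 2.32 (SE 0.40) without, and Ms4a7 by 2.08 (SE 0.33) and 2.25 (SE 0.30). F13a1, the coagulation factor XIII A chain of monocytes and macrophages, rose without ABX (3.02, SE 0.79, adjusted p = 0.00287 by edgeR) and had 1.72 with ABX (SE 1.03, adjusted p = 0.173). In F13a1 the ABX against no ABX value in anti-CD40 mice was -2.06 (SE 0.72, adjusted p = 0.0597), which was called without mouse 19 (adjusted p = 0.0305) or mouse 20 (adjusted p = 0.0417).

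Nr4a1, a nuclear receptor required by patrolling monocytes, rose without ABX (log2 fold change 2.05, SE 0.31, adjusted p = 9.81e-06 by edgeR) and had 0.62 with ABX (SE 0.31, adjusted p = 0.102), which was called without control mouse 4 (0.94, adjusted p = 0.0116) and with library totals (0.98, adjusted p = 0.00682). It was lower with ABX among anti-CD40 mice (-0.91, SE 0.29, adjusted p = 0.0355), at 13.9 ± 4.18 CPM with ABX and 26.1 ± 8.18 CPM without. Leaving out mouse 11, 13, 14, 15, 16, 17 or 18 alone ended that call (adjusted p 0.0522 to 0.120), as did plate column as a term (-0.81, SE 0.48, adjusted p = 0.455) and no filter on low counts (adjusted p = 0.0899).

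The Ly6/uPAR family outside Cd177 and Ly6i had 41 genes listed, 7 with counts and 2 that passed the filter. Ly6e, a GPI-anchored interferon-induced protein, rose to 728 ± 30.9 CPM in anti-CD40 mice with ABX and 655 ± 56.2 CPM in those without, against 166 ± 22.6 CPM in control mice with ABX and 193 ± 59.4 CPM in control mice without. Its log2 fold changes were 2.13 (SE 0.14) with ABX and 1.76 (SE 0.14) without. Lynx1, a modulator of nicotinic receptors, was called higher without ABX (1.05, SE 0.40, adjusted p = 0.0278 by edgeR) and not with ABX (0.24, SE 0.39, adjusted p = 0.632). The first call was lost without mouse 7 (adjusted p = 0.0577), 9 (0.0723) or 17 (0.0587) and with plate column as a term (1.34, SE 0.809, adjusted p = 0.217), and the second value became 1.18 (adjusted p = 9.04e-04) without control mouse 1. Gpihbp1, Ly6f, Ly6g6d, Ly6g6e and Lypd6b had counts but did not pass the filter. Ly6f, whose exon resembles the Ly6i stretch, had 29 counts in anti-CD40 mice with ABX and 14 in those without, against 2 in control mice with ABX and 7 in control mice without.

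Among partners of CD177 and adhesion genes, 3 of 21 had counts and 2 passed. Pecam1, the endothelial partner of human CD177, was not called in any comparison, with anti-CD40 values of -0.53 with ABX (SE 0.53, adjusted p = 0.433) and -0.19 without (SE 0.51, adjusted p = 0.777). Cd47, the surface signal that restrains phagocytosis, rose by 1.77 (SE 0.09) with ABX and 1.63 (SE 0.09) without. Among 22 myeloid chemokines and growth factors, 3 had counts and 2 passed. Ccl3, a chemokine of monocytes and other leukocytes, had 2.66 ± 1.10 CPM in anti-CD40 mice with ABX and 9.12 ± 9.91 CPM in those without, and the controls held 2 counts with ABX and 3 without. The pooled ratio of anti-CD40 to control mice was 37.6 with ABX (95% exact interval 10.1 to 316) and 96.1 without (32.6 to 469). Ccl3 passed the filter only through the anti-CD40 mice, so its calls against controls were partly set by the filter. It was called higher in anti-CD40 mice with ABX and without, and the call with ABX was lost with plate column as a term (5.20, SE 3.33, adjusted p = 0.259). It was called lower with ABX among anti-CD40 mice (-1.77, SE 0.52, adjusted p = 0.0268 by edgeR), but not without mouse 11 (adjusted p = 0.0612), 14 (0.0679), 15 (0.0659) or 18 (-0.88, adjusted p = 0.163), with plate column as a term (-0.89, SE 0.906, adjusted p = 0.689) or with no filter on low counts (adjusted p = 0.0732). Cx3cl1 was not called in either anti-CD40 comparison, with 0.75 with ABX (SE 0.58, adjusted p = 0.300) and 1.31 without (SE 0.62, adjusted p = 0.0713). The value with ABX was 1.98 without control mouse 1 (adjusted p = 0.00487), and the one without ABX was called without mouse 8 (adjusted p = 0.0485), 19 (0.0461) or 20 (0.0458) and with library totals (1.58, adjusted p = 0.0366).

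The few measured genes of the interferon gamma list went the other way from Cd177 between the anti-CD40 groups. Of the 23 reported here, 3 were measured and all 3 rose with anti-CD40, with ABX (26.6% of all genes called higher) and without (31.8%), and all 3 were higher with ABX among anti-CD40 mice (8.68% of all genes called higher), with no overlap of the groups (5.95% of all genes). Tgtp2, an interferon-inducible GTPase, averaged 405 ± 79.3 CPM in anti-CD40 mice with ABX and 178 ± 4.94 CPM in those without, against 6.19 ± 1.12 CPM in control mice with ABX and 5.50 ± 0.972 CPM in control mice without (SD, n = 5 each). The ABX against no ABX log2 fold change in anti-CD40 mice was 1.18 (SE 0.11) for Tgtp2, 0.96 (SE 0.16) for Tgtp1 and 1.03 (SE 0.16) for Irgm2, a further interferon-inducible GTPase. Tgtp1 and Tgtp2 are near-identical and may share fragments. With plate column as a term, Tgtp1 (1.14, SE 0.304, adjusted p = 0.118) and Irgm2 (1.04, SE 0.321, adjusted p = 0.155) were no longer called.

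**Figure D4:**
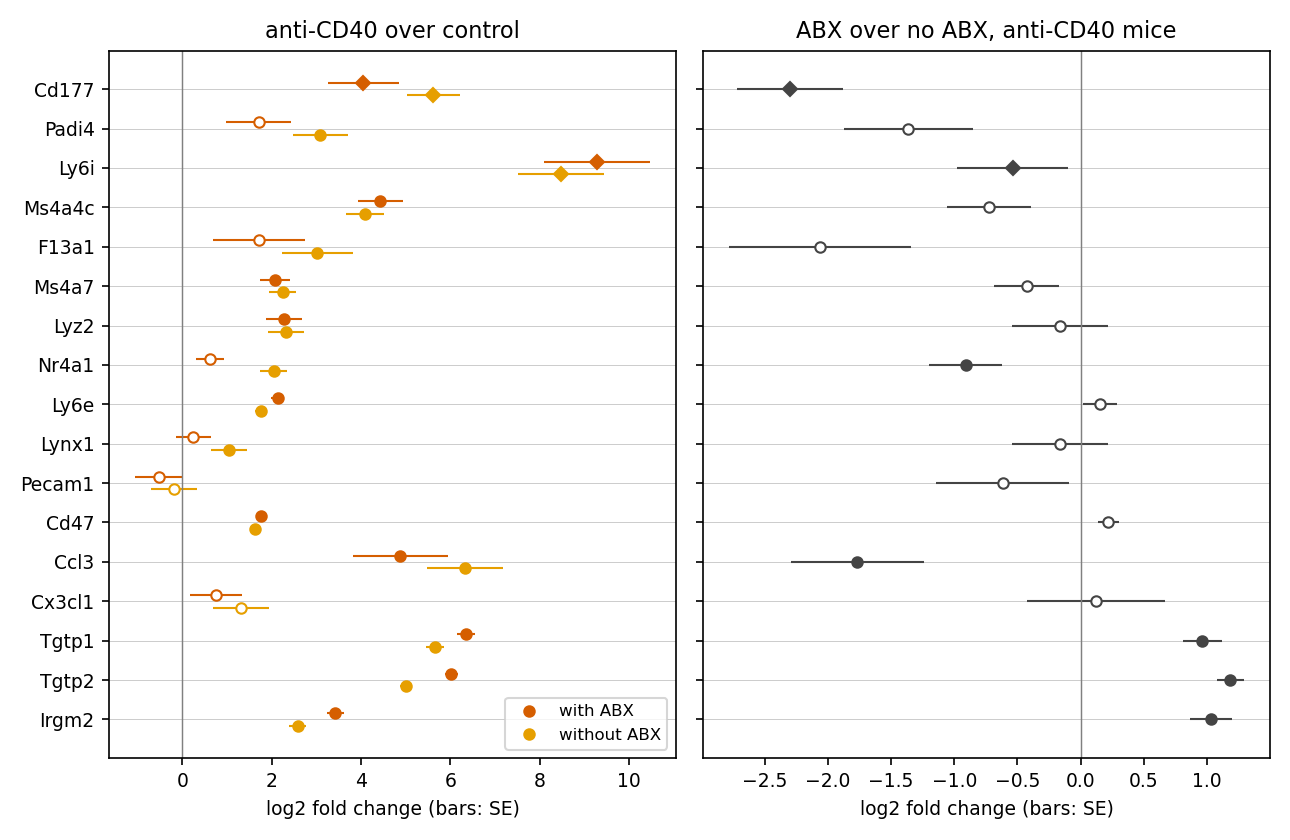
Log2 fold change with SE bars for anti-CD40 over control (left, orange-red with ABX, yellow without) and ABX over no ABX in anti-CD40 mice (right). Drawn are Cd177, Ly6i and the neutrophil, monocyte, Ly6/uPAR, adhesion, chemokine and interferon gamma genes reported here that passed the filter. Genes held only by the other marker lists, some of which fell with anti-CD40, are not drawn. Filled circles were called at an adjusted p under 0.05, open circles were not, and diamonds mark Cd177 and Ly6i, whose symbol shows no call. Of these 2, only Ly6i was tested, on the right, where it was not called. On the right, Cd177, F13a1, Ccl3 and Padi4 lie farthest to the left of 0, and Tgtp2, Irgm2 and Tgtp1 farthest to the right.

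Marker lists of other liver cells moved too, and their part in the results was not tested. Summed over the measured genes, monocyte markers (5 of 34 genes) ranged over 304 to 927 CPM in anti-CD40 mice with ABX and 285 to 1060 CPM in those without, against 111 to 141 CPM in control mice with ABX and 99.3 to 216 CPM in control mice without. A sum is led by its most abundant gene: Lyz2 alone had 278 to 882 CPM in anti-CD40 mice with ABX and 240 to 958 CPM without. Resident macrophage markers (3 of 13) had 24.6 to 37.4 and 39.9 to 140 CPM in the same anti-CD40 groups, against 33.8 to 66.3 and 35.6 to 151 CPM in the controls in the same order. Sinusoidal endothelial markers (3 of 8) had 14.5 to 69.8 and 25.5 to 102 CPM in anti-CD40 mice, against 89.0 to 113 and 98.1 to 145 CPM in controls. Of these, Stab2 was called lower with anti-CD40, at -3.83 (SE 0.33) with ABX and -3.36 (SE 0.31) without. Stab1 was called lower with ABX only (-0.67, SE 0.27), and Pecam1 in neither. Over all genes, 24.9% were called lower with ABX and 28.8% without. T and NK cell markers (2 of 15, Cd8a and Cd8b1) had 3.24 to 6.91 and 2.84 to 6.91 CPM in anti-CD40 mice, against 0 to 0.802 and 0.419 to 1.19 CPM in controls. B and plasma cell markers (2 of 8) had 30.1 to 38.1 and 19.4 to 33.2 CPM in anti-CD40 mice, against 16.8 to 22.9 and 16.2 to 31.3 CPM in controls. Hepatocyte markers (5 of 9, led by Alb) had 71300 to 98400 and 46000 to 71800 CPM in anti-CD40 mice, against 171000 to 265000 and 153000 to 179000 CPM in controls, so the tissue label was met in every library. Fgfr4 of this list was called higher with anti-CD40, at 0.55 (SE 0.12) with ABX and 0.74 (SE 0.11) without. With ABX, 3 hepatocyte genes were called lower and 1 was not called, and without ABX 4 were called lower. Dendritic cell markers (3 of 8) and platelet markers (1 of 5) stayed under 5 CPM in every mouse, and no erythroid marker of 6 was measured.

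The genes most like each member were found by the root mean square difference of log2 CPM over the 20 libraries, each gene centred on its own mean. This is a description, and the libraries share the anti-CD40 contrast. For Cd177 they were Ccl3 (0.55), Nlrp3, an inflammasome sensor (0.74), Ncf1, a subunit of the phagocyte NADPH oxidase (0.76), Ifit1bl2 (0.76) and Treml2 (0.78), where the median over all genes was 1.99. Means of Nlrp3 were 7.98 CPM in anti-CD40 mice with ABX and 17.5 CPM in those without, against 0.757 CPM in control mice with ABX and 1.32 CPM in control mice without. For Ly6i they were Nfkbie, an inhibitor of NF-kappaB (0.73), Slc2a6, a sugar transporter (0.73), Alpk1, a kinase that senses bacterial sugars (0.78), Slc7a11, the cystine transporter (0.79) and Olfr56 (0.81), where the median was 2.73. Nfkbie averaged 85.6 CPM in anti-CD40 mice with ABX and 68.8 CPM in those without, against 1.94 CPM in control mice with ABX and 2.81 CPM in control mice without. Ly6i ranked 82 among the genes like Cd177 (1.16), and Cd177 ranked 19 among those like Ly6i.

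The promoter of Cd177 is shown because the gene was at 0 to 4 counts in every control liver and at 12 or more in every anti-CD40 liver. The RefSeq table (GRCm38.p6) held a promoter for Cd177 and not for Ly6i. The 250 bases before the start site are chr7:24760312-24760561 on the minus strand, 5′ to 3′, and capitals mark the matches found on either strand.
Cd177 promoter: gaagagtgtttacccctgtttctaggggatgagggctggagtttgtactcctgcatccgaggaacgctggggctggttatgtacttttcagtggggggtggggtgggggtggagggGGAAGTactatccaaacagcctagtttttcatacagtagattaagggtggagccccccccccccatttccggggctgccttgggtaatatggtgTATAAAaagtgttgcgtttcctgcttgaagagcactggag
The capitals are TATAAA, whose first base is at -40 from the start, and GGAAGT, an ETS factor core, at -134. The first occurs in 13.6% and the second in 23.8% of the 32851 windows of 300 bases in the table, on either strand. No match was found in the Cd177 window for GAGGAAGT, the PU.1 form of the ETS core that holds GGAAGT (3.2% of windows), TTCNNNGAA, the GAS motif (8.3%), TTGCNNAA, the C/EBP motif (10.8%), or CCAAT (37.4%). A match is a description and no evidence of binding, and the lack of one says nothing of the factor.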

How the data were processed

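Liver RNA of 20 individual mice, 5 in each of 4 groups, was sequenced. Trimmomatic 0.38, HISAT2 2.1.0, featureCounts 1.5.0-p2 and the build mm10 are named in the submitters' processing notes. Per the file headers, the annotation was the human GRCh38 one of Ensembl release 93. The deposited values are whole-number counts per feature, not normalized. Human coordinates were therefore read as mm10 intervals and intersected with GENCODE M21 exons (bedtools 2.31.1). A feature over exons of exactly 1 gene by 50 bp or more was attributed to it: 7463 of 58395 features, 5552 genes, 46.35% of 123867788 counts. The 3576 features on human chromosomes 20 to 22, which mice do not have, held 0 counts. Counts do not use strand.

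Groups were fitted together with edgeR 4.0.16 (R 4.3.3): filterByExpr (2200 genes), TMM on totals over all features, robust quasi-likelihood F-tests, two-sided, Benjamini-Hochberg adjustment over all genes; it was tested on simulated data. Log2 CPM used a prior count of 2. Exact intervals and floors of 3 counts cover counting error only. Near copies were searched with BLAST 2.17.0. The alternatives were DESeq2 1.42.0, library totals, no filter, overlaps of 1 and 100 bp, a plate-column term and leaving out each mouse. Cd177, Ly6i and the gene lists were chosen with earlier results of these data known. The genes named are listed genes with counts and the 5 most like each member; 1 measured gene of the monocyte list and 1 of the interferon gamma list are not reported here and stand outside those lists' counts and medians. Tests planned for Cd177 between the anti-CD40 groups and for its difference of effects are not given, since the values behind them were known when it was chosen. Those between control groups, and the Ly6i difference, are not given for lack of counts in controls. Labels say the mice were individual animals.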

Additional observations from a re-analysis of the deposited data

Results flagged for a closer look

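Cd177 in anti-CD40 mouse 18 without ABX, at 32.8 CPM, lay far from the other 4 mice of its group. The same kind of gap was found in 7 other places. Lyz2 (201 CPM), Ly6e (298 CPM) and Pecam1 (74.6 CPM) stood high in control mouse 8 without ABX. Lynx1 (9.47 CPM) and Cx3cl1 (4.81 CPM) stood high in control mouse 1 with ABX. Ms4a7 (1.48 CPM) stood high in control mouse 5 with ABX, and Lynx1 (5.23 CPM) in anti-CD40 mouse 11 with ABX. These are 8 of 61 groups of 5 looked at. The rule is set to mark about 1 in 20 by chance where values are independent and normally spread. Its rate for CPM values such as these was not measured.

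The anti-CD40 effect differed between mice with and without ABX for Tgtp2, by the fitted difference of 1.02 on the log2 scale (adjusted p = 0.00348 by edgeR). With plate column as a term it was 1.01 (adjusted p = 0.139).

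Features over several genes were left out of the gene tests, and 5 of the 19 that touch a listed neutrophil, monocyte or Ly6 gene had every anti-CD40 mouse above every control mouse, as did 9.65% of the 2550 features over several genes that held counts. The feature shared by Vmn2r22, Vmn2r20 and Clec4d, the last a C-type lectin of neutrophils and monocytes, averaged 55.8 CPM over the 10 anti-CD40 mice, against 1.34 CPM over the 10 control mice. It held 711 counts in anti-CD40 mice with ABX and 2878 in those without, against 32 in control mice with ABX and 48 in control mice without. The feature over Has1 and Fpr2, a formyl peptide receptor of phagocytes, averaged 36.3 CPM, against 1.74 CPM. One over Mmp9, a neutrophil gelatinase, with Zfp335 and Zfp335os averaged 51.3 CPM, against 25.9 CPM. One over Ly6c1 and Gm28068 averaged 9.05 CPM, against 0.374 CPM, and one over Vars, Ly6g6c and 4 other genes averaged 181 CPM, against 62.5 CPM. The genes within each feature cannot be told apart.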

How the results depend on the processing

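No paired analysis was possible because no mouse number is shared between groups. With plate column as a term, the called genes fell to 690 (anti-CD40 against control with ABX, 1133 in the main analysis), 735 (without ABX, 1333), 5 (ABX among anti-CD40 mice, 350), 77 (ABX among control mice, 147) and 0 (difference of effects, 166). For the last, edgeR gave 282 genes at an unadjusted p under 0.05, and DESeq2, with no such term, called 204. The same term gave 3.50 (SE 1.95) with and 4.79 (SE 1.04) without ABX for Cd177, and 11.11 (SE 7.28) with and 9.91 (SE 2.1) without ABX for Ly6i, whose controls are near 0; DESeq2 gave 8.59 for Ly6i with ABX. Without mice 14, 15, 19 and 20, 79 genes differed in effect and 170 by ABX among anti-CD40 mice. The cause was not tested.

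Leaving out 1 mouse gave 1047 to 1119 called genes with ABX, 1262 to 1322 without ABX, 88 to 194 for the difference, 225 to 364 for ABX among anti-CD40 mice and 89 to 137 among control mice. Counts moved by over 1.5 times for the difference without mouse 4 (109), 5 (110), 10 (104), 14 (88) or 18 (94), for anti-CD40 mice without mouse 14 (225) or 18 (230), and for control mice without mouse 4 (90) or 10 (89). Cd177 ranged over 3.73 to 4.63 with ABX, 4.95 to 6.21 without ABX, -2.50 to -1.63 between anti-CD40 groups, -2.15 to -0.90 for the difference and -1.31 to -0.14 among controls. Ly6i ranged over 8.99 to 9.48 with ABX, 8.23 to 9.82 without and, between anti-CD40 groups, -0.82 to -0.30. No value reversed. Library totals moved the median of all genes to 0.37 with ABX, 0.27 without ABX and -0.14 among controls, and the share of calls that were higher to 76.8% (51.6% in the main analysis), 69.7% (52.5%) and 20.1% (51.7%), and to 80.3% (57.8%) for the difference. Cd177 then had 4.38 with and 5.87 without ABX. Alternatives of the Cd177 and Ly6i correlation were not run. Counts of 0 to 4 in single control mice limit every fold against them.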

Other observations

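Of the 19 features shared by several genes that touch a listed neutrophil, monocyte or Ly6 gene, 4 had every anti-CD40 mouse with ABX below every anti-CD40 mouse without ABX, as did 4.31% of the 2550 features over several genes that held counts. Besides the Clec4d and Mmp9 features, 1 lies over Il1r2, the decoy receptor for interleukin 1, and Gm37347. It held 3 counts in anti-CD40 mice with ABX and 59 in those without, against 0 in control mice with ABX and 0 in control mice without. A second feature over Mmp9, with Ctsa and Slc12a5, averaged 10.6 CPM in anti-CD40 mice with ABX and 27.3 CPM in those without, against 6.47 CPM in control mice with ABX and 5.61 CPM in control mice without. The feature over Ly6c1 did not show this order, with 9.40 CPM in anti-CD40 mice with ABX and 8.69 CPM in those without. Other features over listed neutrophil genes did not show it either. Those over Padi4 with Rcc2 and Gm13025 had 10.3 and 10.1 CPM in the same groups. Gfi1 had 0.651 and 0.444 CPM with A430072P03Rik, and 0.218 and 0.31 CPM with 4930428O21Rik. Has1 with Fpr2 had 23.6 and 49.0 CPM, and its groups overlapped. These features were picked from a fixed list of genes but after their values were seen, and no test is given.

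Of the 3 resident macrophage genes measured, 2 fell with anti-CD40, where 24.9% of all genes were called lower with ABX and 28.8% without. Mrc1, the mannose receptor, fell in anti-CD40 mice, with log2 fold changes of -4.76 with ABX (SE 0.41) and -5.63 without (SE 0.45). Mrc1 was near 0 in anti-CD40 mice (means 0.615 CPM with ABX and 0.306 CPM without). It passed the filter only through the control mice. Adgre1, which encodes F4/80, also fell, with -2.54 (SE 0.39) with ABX and -2.50 (SE 0.38) without. Marco, a scavenger receptor, was called higher with ABX (1.72, SE 0.64, adjusted p = 0.0344 by edgeR) and had 1.14 without (SE 0.56, adjusted p = 0.0907).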
